A study of Mus musculus with 36 samples.

Results

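The nuclear genes of respiratory chain complexes II, III and IV were followed here as a set of 37 genes, which held 4 subunits of complex II, 9 of complex III, cytochrome c, 16 subunits of complex IV and 7 assembly factors of complex IV. They were chosen by name, as genes with these roles. No limit on a measured value was used, though the choice was made with earlier results of these data known. All 37 were found among the 51912 Ensembl gene identifiers counted, and all 37 had enough counts to be tested in every comparison. The libraries came from whole tibialis anterior (TA) and soleus of 3-month-old male C57BL/6 mice that were either WT or ∆Ig3-MuSK. The ∆Ig3-MuSK mice were homozygous for a CRISPR-Cas9 deletion of the exons that encode the Ig3 domain of MuSK, the muscle-specific kinase of the neuromuscular junction, which also binds BMPs through this domain. The allele is a germline deletion, so it is carried by every cell of the muscle and not by the muscle fibers alone. Each of the 4 combinations of muscle and genotype had 9 libraries, none from a treated animal.

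Complex II (succinate dehydrogenase) oxidizes succinate in the TCA cycle and passes the electrons to ubiquinone. Complex III moves electrons from ubiquinone to cytochrome c, and complex IV (cytochrome c oxidase) uses them to reduce oxygen to water. The catalytic core of complex IV and cytochrome b of complex III are encoded in mitochondrial DNA, and the genes described here encode all of complex II and the nuclear subunits of the others. Several complex IV subunits exist as paralogs, here called the restricted and the ubiquitous form. The ubiquitous form is made in most tissues. The restricted form is found mainly, though not only, in contractile tissue (Cox6a2, Cox7a1 and Cox8b) or in lung (Cox4i2). Slow oxidative fibers, which make up much of the mouse soleus, are known for a higher content of mitochondria than the fast glycolytic fibers of the TA.

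The total count per library was 43492062 to 50051435 for WT soleus, 46397769 to 60426556 for ∆Ig3-MuSK soleus, 49287472 to 75091437 for WT TA and 56584208 to 78660422 for ∆Ig3-MuSK TA. Values are CPM (read counts relative to library size), scaled with 1 set of TMM factors over the 36 libraries, a correction for library size and composition. The muscle labels matched Myh7, the slow myosin heavy chain, which lay between 1.99 and 37.5 CPM in TA libraries and between 6540 and 10800 CPM in soleus libraries. Myh4, a fast myosin heavy chain, lay between 11900 and 32900 CPM in TA libraries. In soleus libraries Myh4 varied widely, between 150 and 6110 CPM in WT and between 252 and 4910 CPM in ∆Ig3-MuSK. The part of this variation in the values below was not tested. Ucp1, which defines brown fat, was at most 0.0347 CPM in any library. Of the 3 cardiac genes listed, Nppa and Tnni3 were at most 0.314 and 0.684 CPM. Myh6, the other cardiac gene, lay between 1.89 and 7.94 CPM in TA libraries and between 519 and 883 CPM in soleus libraries. Musk itself, counted over all of its exons, lay at 2.87 to 5.58 CPM in WT TA, 2.62 to 4.01 CPM in ∆Ig3-MuSK TA, 12.5 to 18.4 CPM in WT soleus and 8.07 to 17.5 CPM in ∆Ig3-MuSK soleus, and such counts cannot show the loss of single exons. The 2 muscles were counted in separate tables, so muscle and table cannot be told apart. In whole muscle, fewer cells of a type and less RNA per cell cannot be told apart either. In the TA 3 libraries stood apart for these genes, namely WT TA replicates 3 and 5 and ∆Ig3-MuSK TA replicate 3, and results are given with and without them.

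The 37 genes together took 0.765% to 0.940% of all counts in WT TA (median 0.869%) and 0.739% to 0.931% in ∆Ig3-MuSK TA (median 0.777%). They took 0.846% to 0.919% in WT soleus (median 0.897%) and 0.817% to 0.925% in ∆Ig3-MuSK soleus (median 0.886%). The ranges of all 4 groups overlapped. No gene had fewer than 87 counts in any library. The SD of log2 CPM within a group had a median over the 37 genes of 0.229 in WT TA, 0.145 in ∆Ig3-MuSK TA, 0.0966 in WT soleus and 0.148 in ∆Ig3-MuSK soleus.

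Levels can be set side by side between genes only per transcript length, so they were divided by the length of the principal transcript in kb. On this scale the highest genes in WT TA were Uqcrq, a small subunit of complex III, at 1216 CPM per kb, Cox8b at 1139, Ndufa4, a small subunit of complex IV first counted with complex I, at 997, Cox4i1, the largest nuclear subunit of complex IV, at 887, and Cox6a2 at 824. In WT soleus the order of these 5 was Cox6a2 at 952 CPM per kb, Cox8b at 914, Uqcrq at 812, Cox4i1 at 771 and Ndufa4 at 671. Of the 7 assembly factors, Cox17, a copper chaperone, was at 104 CPM per kb in WT TA and 90.99 in WT soleus, above the complex IV subunits Cox8a, at 48.1 and 57.6, and Cox6a1, at 35.2 and 44.0. The others were lower. Surf1, which acts early in building the COX1 module, was at 18.6 CPM per kb in WT TA, Cox10, which makes heme O, at 13.4, and Cox15, which turns heme O into heme A, at 6.19. Sco1 and Sco2, which carry copper to complex IV, were at 2.59 and 10.03 CPM per kb. Cox4i2 was the lowest of the subunits, at 3.14 CPM per kb in WT TA and 3.39 in WT soleus.

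**Figure D1:**
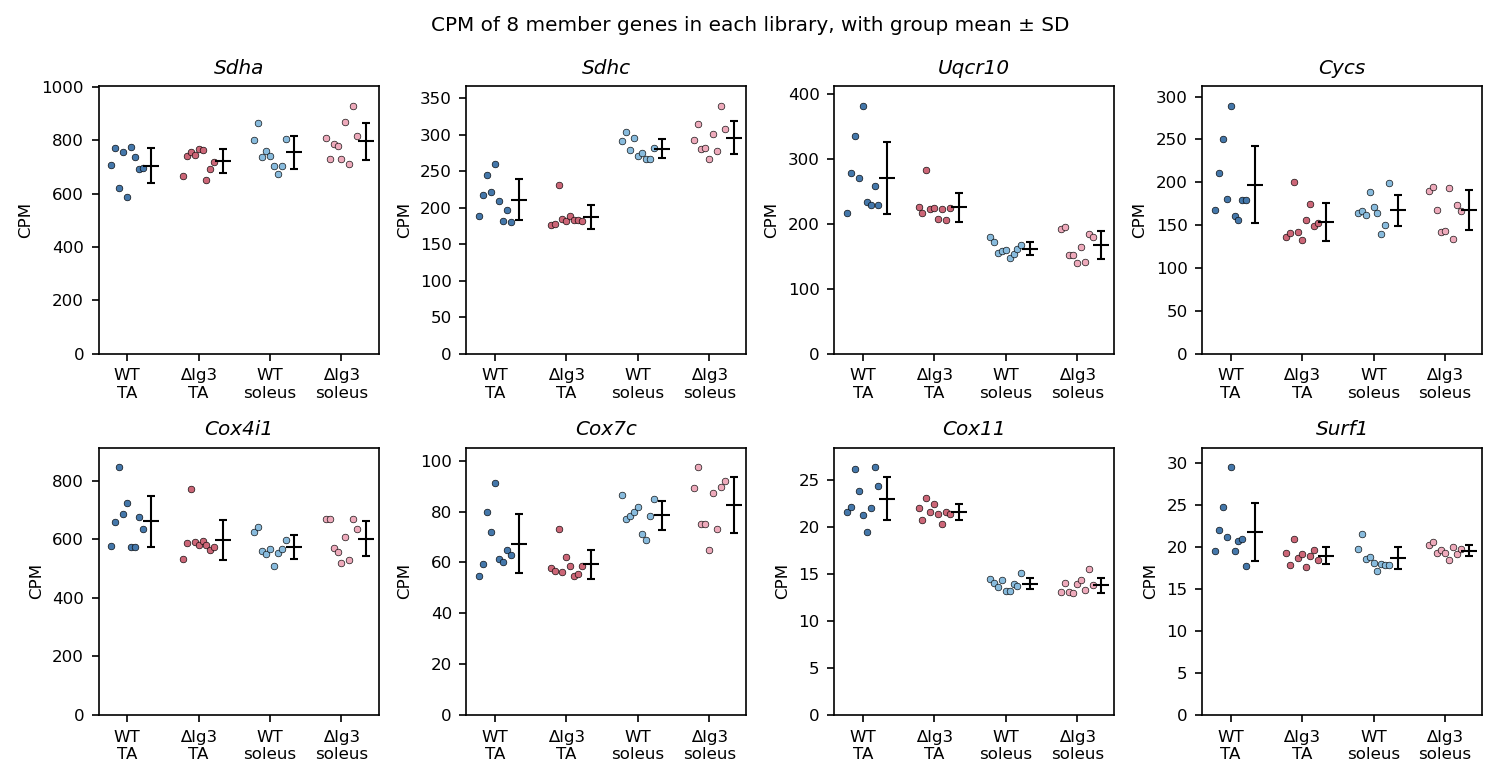
CPM (vertical axes, from 0) of 8 genes in each library of the 4 groups, with the group mean and SD. In the TA, WT replicates 3 and 5 and ∆Ig3-MuSK replicate 3 sit high for most of the 8, and Cox11 separates the muscles in both genotypes.

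In the TA, transcripts of complexes II to IV leaned low in ∆Ig3-MuSK, but no gene passed the test. The log2 fold change of ∆Ig3-MuSK against WT was below 0 for 36 of the 37 genes, with a median of −0.19 against −0.003 over all genes tested. It was read with edgeR's quasi-likelihood test over 20075 genes, where a call needs a Benjamini-Hochberg adjusted p under 0.05 and at least a 1.2-fold change. Called genes were 0 of 37 in either direction, beside 0.0149% of all genes called higher and 0% called lower, and the adjusted p of the 37 ranged from 0.146 to 0.943. At an unadjusted p under 0.05, 22 of the 37 were lower and 0 were higher, beside 12% of all genes lower and 12.2% higher. DESeq2 called 0 of the 37 (0.822% of all genes) with a smallest adjusted p of 0.0616, no adjusted p given for Cox4i2 and 23 lower at an unadjusted p. Run with a quality weight for each library, limma-voom called 0 (0.747% of all genes). Its smallest adjusted p was 0.0706, and 27 were lower at an unadjusted p. No gene had WT and ∆Ig3-MuSK TA libraries without overlap, as was the case for 0.0192% of all genes in the higher and 0.0096% in the lower direction.

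Complex II was the only complex with a gene above 0. Sdha, the flavoprotein that oxidizes succinate, lay at 588 to 776 CPM in WT TA (median 708) and at 650 to 769 CPM in ∆Ig3-MuSK TA (median 740), with a log2 fold change of 0.04 ± 0.061 (SE, n = 9 and 9). Sdhb, the iron-sulfur subunit, lay at 298 to 486 CPM in WT TA (median 336) and at 268 to 392 CPM in ∆Ig3-MuSK TA (median 308), with a log2 fold change of −0.19 ± 0.086. For both genes the genotypes overlapped over most of their range. The membrane anchors Sdhc and Sdhd had log2 fold changes of −0.17 ± 0.072 and −0.24 ± 0.094.

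All 9 complex III genes were below 0 in the TA, with a median log2 fold change of −0.23 and 7 of 9 lower at an unadjusted p. Uqcr10, a small subunit, lay at 216 to 381 CPM in WT TA (median 258) and at 206 to 282 CPM in ∆Ig3-MuSK TA (median 222). The log2 fold change of Uqcr10 was −0.26 ± 0.096 (edgeR, adjusted p = 0.163), and the ∆Ig3-MuSK range lay inside the WT range but for its lower end. Uqcrc1, a core protein, lay at 605 to 696 CPM in WT TA (median 682) and at 571 to 740 CPM in ∆Ig3-MuSK TA (median 622). Its log2 fold change of −0.07 ± 0.053 was the closest to 0 of the 9.

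Cycs, the electron carrier between complexes III and IV, had the most negative log2 fold change of the 37 in the TA. Its gene spans 50562563 to 50566538 on the minus strand of chromosome 6 (GRCm38). In the 9 WT TA libraries it ran from 156 to 289 CPM (median 180), with a mean of 197 ± 45.2 CPM (SD, n = 9), and in the 9 ∆Ig3-MuSK TA libraries between 132 and 201 CPM (median 149), with a mean of 154 ± 21.7 CPM (SD, n = 9). The upper WT end of Cycs was set by replicates 3 and 5, at 250.2 and 289 CPM, and the upper ∆Ig3-MuSK end by replicate 3, at 201 CPM. The log2 fold change of Cycs was −0.36 ± 0.11 (edgeR, unadjusted p = 0.00392, adjusted p = 0.146). In a single fit over the 36 libraries the same difference had an adjusted p of 0.0417, so that Cycs was called there, and with a library left out in turn the adjusted p ranged from 0.0733 to 0.275. In the annotation 2 pseudogenes carry the name of Cycs, and how reads shared with them were counted is not given in the sources used here.

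The start of Cycs is shown because this promoter is a textbook case of control by NRF1, a regulator of nuclear respiratory chain genes. The 250 bases upstream of its start (RefSeq, GRCm38.p6, chr6:50566570-50566819, minus strand) are printed with the match to the NRF1-type motif GCGCANGCG in capitals, which lay 61 to 53 bases upstream on the opposite strand.
Cycs: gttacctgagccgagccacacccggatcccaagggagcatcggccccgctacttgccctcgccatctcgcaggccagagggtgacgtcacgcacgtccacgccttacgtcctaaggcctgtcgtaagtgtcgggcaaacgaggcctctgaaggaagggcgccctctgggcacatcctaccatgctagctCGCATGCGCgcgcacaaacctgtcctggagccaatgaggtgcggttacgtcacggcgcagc
Such windows were at hand for 27 of the 37 genes and were searched on both strands. GCGCANGCG was found in 4 of the 27 (14.8%, Cox6a1, Cycs, Sdha and Sdhd), beside 5.16% of all 32851 windows of that length. The ETS-type motif CCGGAAG was found in 7 of the 27 (25.9%, Cox10, Cox6a1, Cox6b1, Sco1, Sdhd, Uqcr11 and Uqcrh) beside 6.91% of all windows. The ERR-type motif AAGGTCA and the YY1-type motif AAGATGGC were found in 0 of the 27, beside 4.08% and 1.56% of all windows. None of the 4 motifs was present in 18 of the 27 (66.7%) and in 83.7% of all windows. These are letters in a window and not measured binding sites.

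Complex IV subunits were below 0 in the TA throughout. The 7 subunits without a paralog among the 37 (Cox5a, Cox5b, Cox6b1, Cox6c, Cox7b, Cox7c and Ndufa4) had log2 fold changes between −0.27 and −0.17, with a median of −0.21. Cox7a2l, a Cox7a relative that links complexes III and IV into supercomplexes, lay at 57.5 to 95.8 CPM in WT TA (median 67.1) and at 52.0 to 81.4 CPM in ∆Ig3-MuSK TA (median 58.8), with a log2 fold change of −0.22 ± 0.096. The restricted and ubiquitous paralogs had medians of −0.19 and −0.17, and all 8 were below 0. Cox8b, a restricted paralog, lay at 345 to 541.8 CPM in WT TA (median 368) and at 336 to 411 CPM in ∆Ig3-MuSK TA (median 343), with a log2 fold change of −0.23 ± 0.083 (edgeR, adjusted p = 0.163). As for Uqcr10, the ∆Ig3-MuSK libraries of Cox8b filled the lower part of the WT range.

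The 7 assembly factors were also below 0, with a smaller median of −0.09. Surf1 lay at 17.8 to 29.5 CPM in WT TA (median 20.9) and at 17.6 to 21.0 CPM in ∆Ig3-MuSK TA (median 19.0), with a log2 fold change of −0.20 ± 0.074. The narrow ∆Ig3-MuSK range of Surf1 lay in the lower part of the WT range. Cox15 lay between 24.0 and 32.8 CPM in WT TA and between 27.9 and 30.5 CPM in ∆Ig3-MuSK TA, and its log2 fold change of −0.01 ± 0.059 was among the nearest to 0. Reads of 12 of the 37 genes can overlap another gene and were not separated by strand, most of all for Sco2, which shares 856 bp of exons with Tymp on its own strand and 829 bp with Ncaph2 on the other, and for Cox11, which shares 688 bp with Tom1l1 on the other strand.

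**Figure D2:**
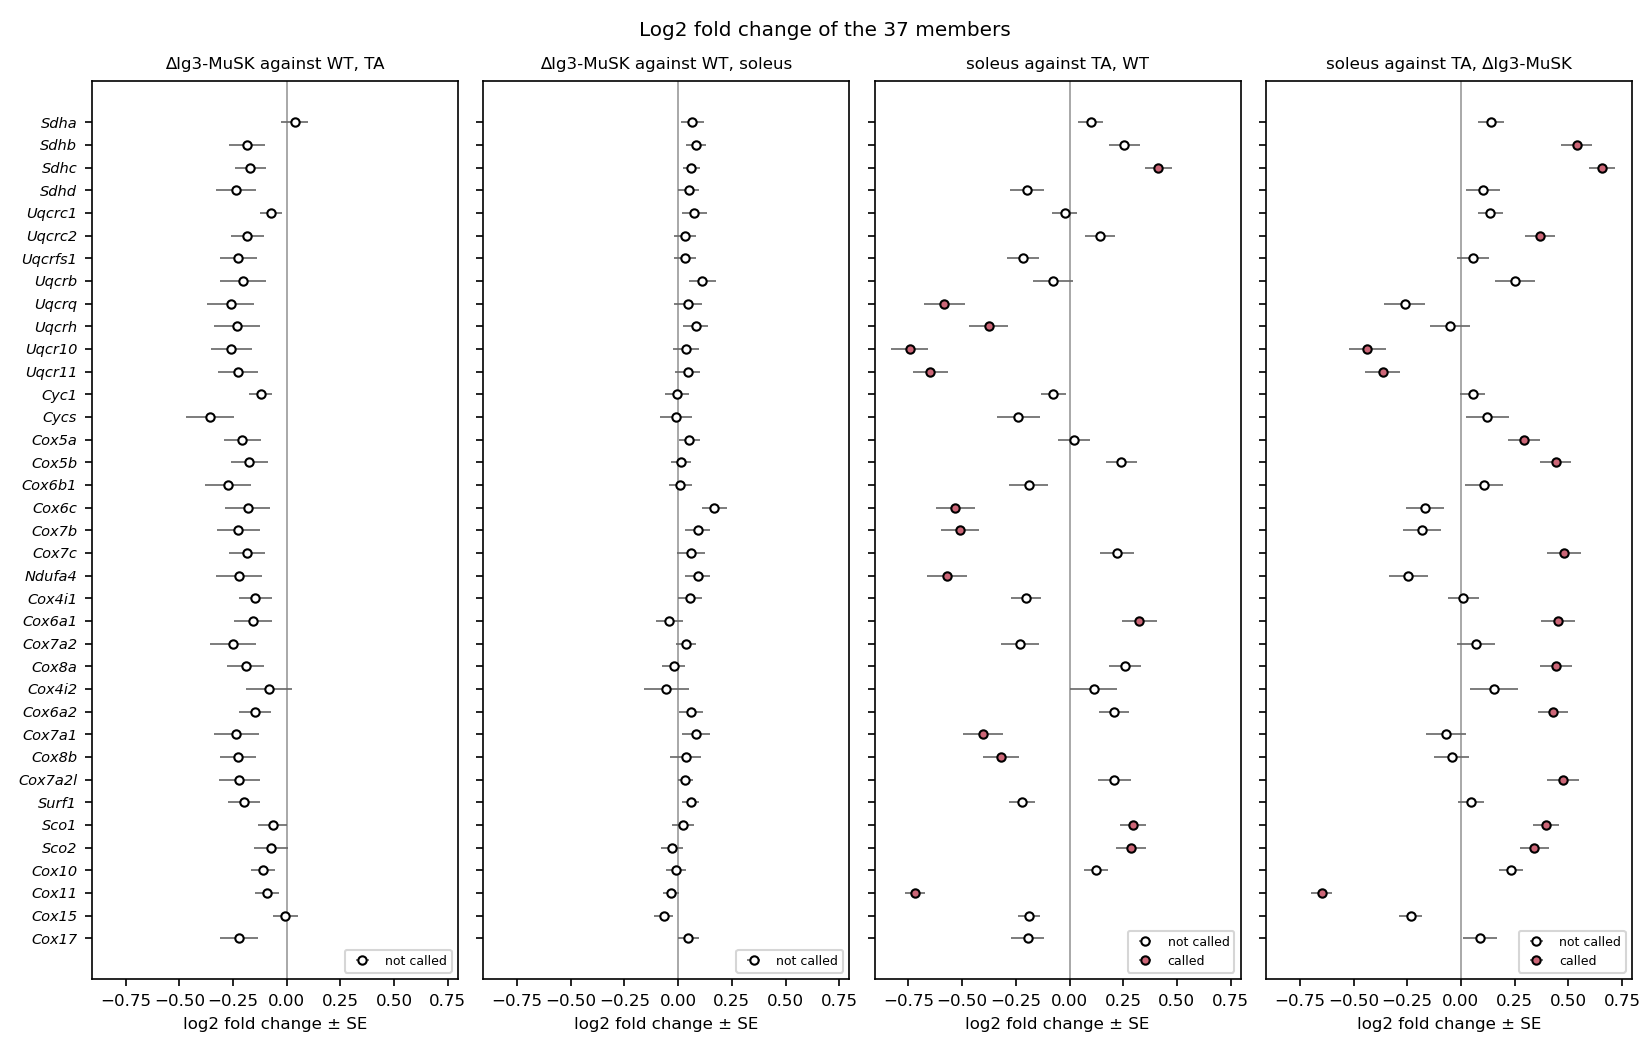
Log2 fold change ± SE (horizontal axes) of each of the 37 genes, by genotype in each muscle and between the muscles. In the TA 36 of the 37 genes lie below 0, and in the soleus 28 lie above 0.

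In the TA the log2 fold change of other genes varied with transcript length. Over 8883 well-expressed genes, which include 35 of the 37, the other genes whose transcript is under 700 nt had a median log2 fold change of −0.18 in the TA, those of 700 to 1500 nt −0.14, those of 1500 to 3000 nt −0.059 and those over 3000 nt 0.075. Of these other genes, 43%, 37.8%, 20.1% and 5% were lower at an unadjusted p. Among the 35, 17 genes have transcripts under 700 nt and 10 have 700 to 1500 nt, and their medians were −0.22 and −0.19. The 5 genes of 1500 to 3000 nt had a median of −0.11, and the 3 over 3000 nt (Sdhc, Cycs and Cox15) one of −0.17. Most of the 37 are short transcripts, and other short transcripts had a shift of the same sign that was nearly as large. Over 3000 nt the 3 members and the other genes had opposite signs, at −0.17 and 0.075. The other genes were all genes outside the 37, so genes of complex V and further respiratory chain genes were not taken out. The part of transcript length in the shift of the 37 genes was not tested.

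**Figure D3:**
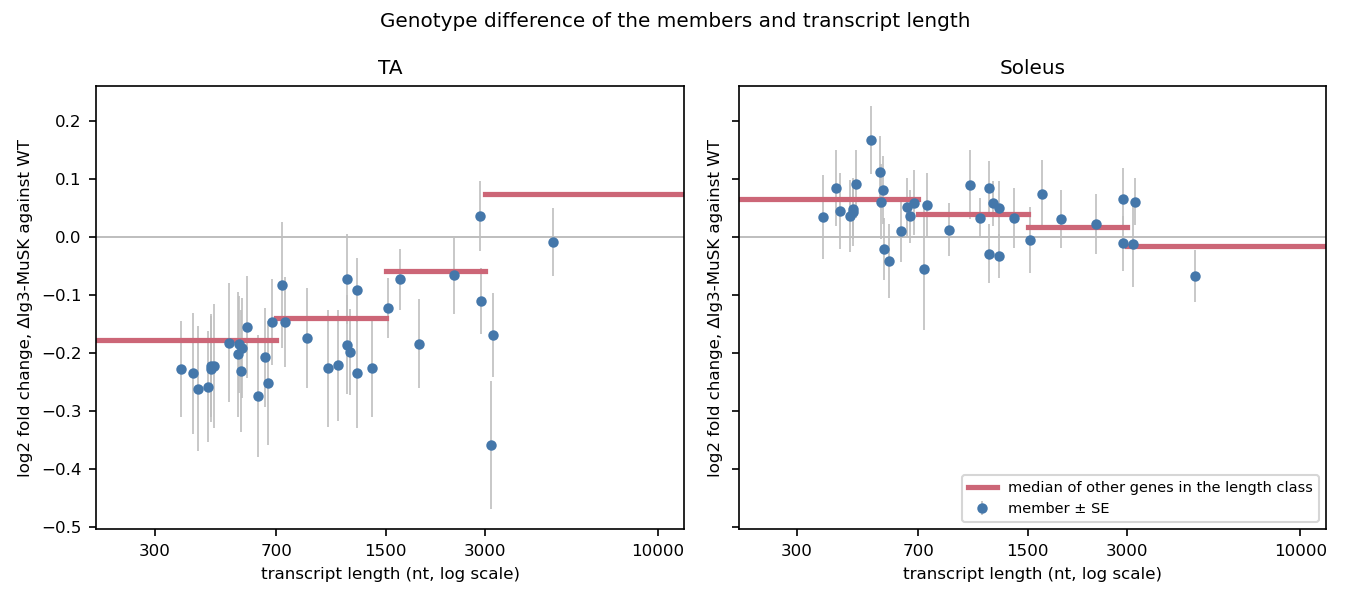
Log2 fold change of ∆Ig3-MuSK against WT (vertical axes) of the 37 genes and the median of other genes by transcript length (nt, log scale) in each muscle. In the TA the other genes run from −0.18 under 700 nt to 0.075 over 3000 nt, and the shorter members lie near them.

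The 37 genes and other short transcripts were also set side by side in each library. The median deviation of the 37 genes from their TA mean was 0.55 on the log2 scale in WT replicate 5, 0.34 in WT replicate 3 and 0.23 in ∆Ig3-MuSK replicate 3, and between −0.18 and 0.13 in the other 15 TA libraries. Other genes under 700 nt deviated by 0.50, 0.36 and 0.18 in these 3 libraries. Across the 18 TA libraries the 2 medians had Pearson's r = 0.978 and Spearman's rho = 0.841, and without the 2 farthest libraries r = 0.938 (n = 16). Within WT TA r was 0.985 and rho 0.933, and within ∆Ig3-MuSK TA r was 0.929 and rho 0.4 (n = 9 each). Across the 18 soleus libraries r was 0.887 and rho 0.872. These describe libraries that share depth and scaling, and no p is attached. WT TA replicate 5 was the highest of its group for 29 of the 37 genes, and ∆Ig3-MuSK TA replicate 3 for 34.

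**Figure D4:**
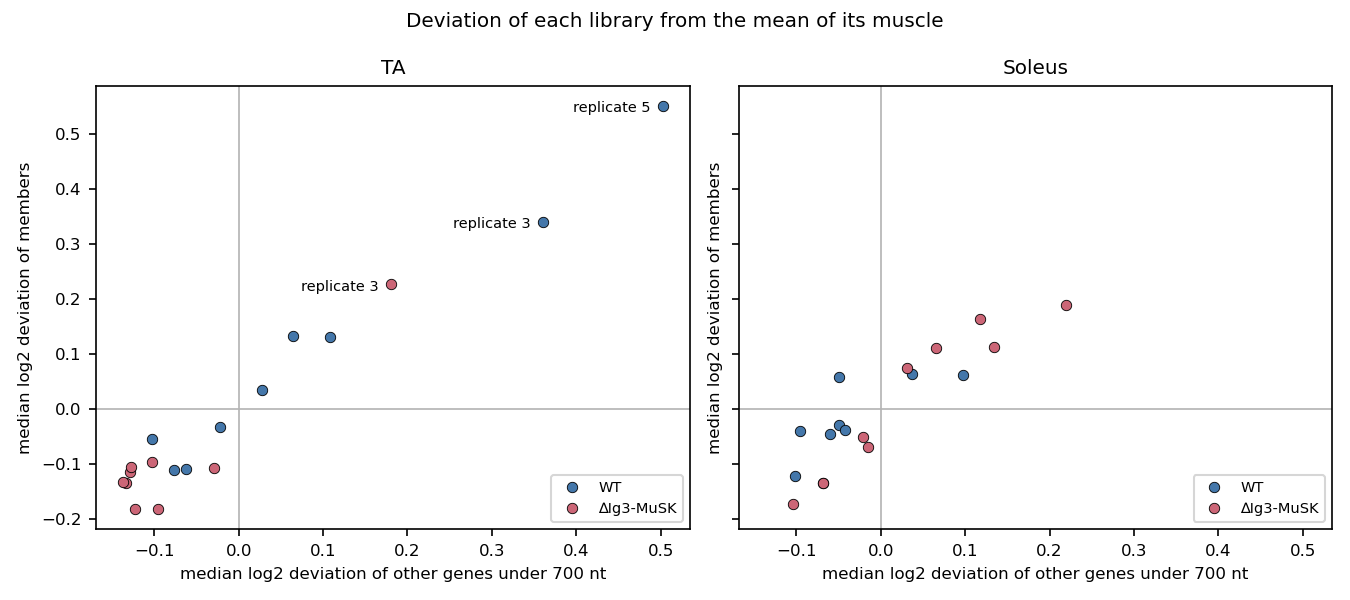
Median log2 deviation of the 37 genes (vertical axes) against that of other genes under 700 nt (horizontal axes), 1 point per library, from the mean of its muscle. In the TA, WT replicate 5 stands at 0.55, WT replicate 3 at 0.34 and ∆Ig3-MuSK replicate 3 at 0.23, and the other libraries cluster between −0.18 and 0.13.

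Leaving out WT TA replicates 3 and 5, an alternative chosen after the data were seen, brought the median of the 37 genes in the TA to −0.08. There 1 gene (Cycs, log2 fold change −0.20, edgeR, adjusted p = 0.397) was lower at an unadjusted p, beside 3.79% of all genes, and 35 stayed below 0. Without these and ∆Ig3-MuSK replicate 3, so that the 3 libraries that stood apart were gone from both genotypes, the median was −0.13, all 37 were below 0 and 28 were lower at an unadjusted p, beside 9.16% of all genes. The smallest adjusted p was then 0.0719 (edgeR, Cycs, log2 fold change −0.26), and 0 were called. In that fit, other genes under 700 nt had a median of −0.10, against −0.15 for the 17 members of that length. With an offset for transcript length in each library, which takes away by construction any change that genes of like length share, the median was −0.05, 29 genes were below 0 and 4 (Cycs, Sdhc, Cox15 and Uqcrfs1) were lower at an unadjusted p, beside 6.89% of all genes. Cycs kept a log2 fold change of −0.37 with the length offset (edgeR, adjusted p = 0.158).

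No marker of other cells or of muscle fibers was called in the TA. At an unadjusted p 12.2% of all genes were higher there and 12% lower. None of 8 pericyte and smooth muscle markers was called, and 3 were higher at an unadjusted p, with a summed level of 567 to 716 CPM in WT TA (median 678) and 638 to 785 CPM in ∆Ig3-MuSK TA (median 720). Of 5 tendon and fibroblast markers 0 were called and 2 were lower at an unadjusted p, with summed levels of 173 to 435 CPM in WT (median 223) and 154 to 296 CPM in ∆Ig3-MuSK (median 237). Of 16 fiber type markers 0 were called and 1 was higher at an unadjusted p. The same was true of 1 of 5 endothelial and 1 of 7 skeletal muscle markers. The adipocyte, macrophage, Schwann cell, cardiac and red blood cell lists had 0 in either direction. The part of these cells in the TA values was not tested.

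In the soleus the same genes lay close to 0 and slightly above it in ∆Ig3-MuSK. Of the 37, 28 were above 0, with a median log2 fold change of 0.04 against −0.0017 over all 19439 genes tested. edgeR called 0, beside 0.365% of all genes called higher and 0.586% called lower. At an unadjusted p, 1 gene was higher and 0 were lower, beside 8.48% and 10.1% of all genes. DESeq2 called 0 (2.51% of all genes, smallest adjusted p 0.0862, 1 gene higher and 0 lower at an unadjusted p), and limma-voom called 0 (3.36% of all genes, smallest adjusted p 0.0827, 1 higher and 1 lower). No gene had groups without overlap, beside 0.0288% of all genes in the higher and 0.0432% in the lower direction. With library totals alone as the scaling, the median of the 37 was −0.041, while that of all genes moved by −0.08. By transcript length the order was the reverse of that in the TA, with medians of 0.066, 0.039, 0.018 and −0.015 for other genes under 700, 700 to 1500, 1500 to 3000 and over 3000 nt, and of 0.048, 0.041, 0.031 and −0.011 for the members. With the length offset the median of the 37 in the soleus was −0.0018.

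The gene at the unadjusted threshold was Cox6c, a small subunit of complex IV. It lay between 177 and 221 CPM in WT soleus (median 198) and between 191 and 271 CPM in ∆Ig3-MuSK soleus (median 230.0), with a log2 fold change of 0.17 ± 0.059 (edgeR, unadjusted p = 0.00973, adjusted p = 0.134). The upper ∆Ig3-MuSK libraries of Cox6c passed the highest WT library, and the lower ones overlapped WT. Sdhb lay between 380.5 and 448 CPM in WT soleus (median 419.5) and between 393 and 505 CPM in ∆Ig3-MuSK soleus (median 466), with a log2 fold change of 0.08 ± 0.046. Uqcrb, a small complex III subunit, lay between 80.9 and 102.0 CPM in WT and between 83.4 and 119 CPM in ∆Ig3-MuSK, with a log2 fold change of 0.11 ± 0.063.

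Cycs overlapped broadly between the genotypes in the soleus, between 139 and 199 CPM in WT (median 165) and between 134 and 194 CPM in ∆Ig3-MuSK (median 168), with a log2 fold change of −0.01 ± 0.076. Sdha was between 675 and 866 CPM in WT soleus (median 741) and between 713 and 930.1 CPM in ∆Ig3-MuSK soleus (median 786), at 0.07 ± 0.054. Uqcrc1 was between 588 and 736 CPM in WT (median 639) and between 600.2 and 815 CPM in ∆Ig3-MuSK (median 708), at 0.07 ± 0.058. The most negative values were those of Cox15 (−0.07 ± 0.045), Cox4i2 (−0.05 ± 0.11) and Cox6a1 (−0.04 ± 0.063), the ubiquitous form of subunit 6a. In Cox11, which delivers copper to the COX1 site, the value was −0.03 ± 0.038. All of these differences were within the spread between libraries. Tendon and fibroblast markers summed to 313 to 870 CPM in WT soleus (median 563) and 69.0 to 494 CPM in ∆Ig3-MuSK soleus (median 326). Of these 5, 0 were called and 2 were lower at an unadjusted p. Of the 8 pericyte and smooth muscle markers 1 (Acta2, log2 fold change −0.38) was called lower. At an unadjusted p 4 of the 8 were lower and 0 higher. Of 5 endothelial markers 0 were called and 2 were lower at an unadjusted p. Of 5 Schwann cell and nerve markers and of 16 fiber type markers 0 were called and 2 each were higher. Beside these stood 10.1% of all genes lower and 8.48% higher at an unadjusted p. The part of these cells in the soleus values was not tested.

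Whether the genotype difference itself differed between the muscles was tested as an interaction in 1 fit over the 36 libraries. The log2 fold change of ∆Ig3-MuSK against WT in the soleus minus that in the TA was above 0 for 36 of the 37 genes, all but Cox15, with a median of 0.27 against −0.002 over all 20841 genes. edgeR called 0 of the 37, and 0% of all genes in each direction, with a smallest adjusted p among the 37 of 0.103. At an unadjusted p 25 of the 37 were above 0 and 0 below, beside 13.7% and 11.2% of all genes. DESeq2 called 0 of the 37 (1.62% of all genes) with a smallest adjusted p of 0.0556 and 26 above 0 at an unadjusted p.

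Surf1 had the smallest p, with an interaction of 0.27 ± 0.086 (edgeR, unadjusted p = 0.0036, adjusted p = 0.103). In the soleus Surf1 lay between 17.2 and 21.6 CPM in WT (median 18.2) and between 18.4 and 20.6 CPM in ∆Ig3-MuSK (median 19.6), so the ∆Ig3-MuSK median lay above the WT median there and below it in the TA. Cox6c had an interaction of 0.36 ± 0.13, Sdhc one of 0.24 ± 0.088 and Cycs one of 0.36 ± 0.14. The one negative value was that of Cox15, at −0.05 ± 0.074.

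The interaction used the same TA libraries as the TA comparison, and the interaction of other genes varied with transcript length as well. Other genes under 700 nt had a median of 0.25, those of 700 to 1500 nt 0.19, those of 1500 to 3000 nt 0.077 and those over 3000 nt −0.088, and the 35 members in these classes had 0.30, 0.27, 0.13 and 0.24. Without WT TA replicates 3 and 5 the median of the 37 was 0.15 with 5 above 0 at an unadjusted p, beside 6.82% of all genes. Without the 3 libraries it was 0.19 with 25, beside 10.5%. With the length offset it was 0.06 with 2, beside 7.97%. With library totals alone 1 was above 0 at an unadjusted p, while the median of all genes moved by −0.135. The part of transcript length and of these libraries in the interaction was not tested further.

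Between the muscles, members of the same complex went both ways, and the soleus was not uniformly higher. In WT, 4 of the 37 genes were called higher in soleus and 10 lower, beside 30.2% and 27.3% of all 20841 genes. In ∆Ig3-MuSK, 12 were called higher and 3 lower, beside 28.5% and 27.6%, and the number lower was 5 with the length offset and 5 with the replicate block by shared label number. The median log2 difference of soleus against TA was −0.19 in WT and 0.11 in ∆Ig3-MuSK, against 0.018 and −0.0013 over all genes. The number of higher genes in WT depended on scaling and libraries. With library totals alone 14 were higher and 7 lower in WT, the median of all genes having moved by 0.181, and with the length offset, without WT TA replicates 3 and 5, or without the 3 libraries 11, 10 and 10 were higher. Groups without overlap were found in WT for 1 gene higher (Sdhc) and 7 lower, beside 14.6% and 13.7% of all genes, and in ∆Ig3-MuSK for 4 higher and 3 lower, beside 14.8% and 14.6%. A gene given below as not called can still have an adjusted p under 0.05 and have missed only the 1.2-fold minimum. Surf1 and Cox8a in WT were such genes (edgeR, adjusted p = 0.00165 and 0.00257). At an unadjusted p, 12 of the 37 were higher and 19 lower in WT, beside 35.9% and 33.7% of all genes. In ∆Ig3-MuSK these were 16 and 7, beside 34.8% and 34%.

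Sdhc, the membrane anchor of complex II that helps to bind ubiquinone, was the member most raised in soleus. It lay between 180 and 260.5 CPM in WT TA (median 209) and at 266 to 303 CPM in WT soleus (median 279), a log2 difference of 0.41 ± 0.062 (edgeR, adjusted p = 3.14e-07). In ∆Ig3-MuSK it lay between 176 and 231 CPM in TA (median 183) and between 266 and 340 CPM in soleus (median 293), a difference of 0.66 ± 0.062 (edgeR, adjusted p = 1.02e-11). The muscles did not overlap in either genotype. Sdhb was higher in soleus by 0.54 ± 0.073 in ∆Ig3-MuSK, where the muscles did not overlap, while at 0.256 ± 0.073 in WT it missed the 1.2-fold minimum, which is 0.263 on the log2 scale. Sdha differed by 0.10 ± 0.059 in WT and 0.14 ± 0.059 in ∆Ig3-MuSK, and was not called.

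Of the small subunits of complex III, Uqcr10 and Uqcr11 were called lower in soleus in both genotypes. Uqcr10 lay between 147 and 179 CPM in WT soleus (median 160) and between 139 and 195 CPM in ∆Ig3-MuSK soleus (median 164), below every TA library of the same genotype, with log2 differences of −0.74 ± 0.086 and −0.44 ± 0.086 (edgeR, adjusted p = 1.27e-09 and 3.18e-05). Uqcr11 lay between 159 and 281 CPM in WT TA and between 116 and 139 CPM in WT soleus, and differed by −0.65 ± 0.082 in WT and −0.36 ± 0.082 in ∆Ig3-MuSK. Uqcrq and Uqcrh were called lower in WT soleus, at −0.58 and −0.38. In ∆Ig3-MuSK Uqcrh was at −0.05, not called, and Uqcrq at −0.262 (edgeR, adjusted p = 0.015) just missed the 1.2-fold minimum. Uqcrc2, a core protein, was called higher in ∆Ig3-MuSK soleus at 0.37. Uqcrb, another small subunit, was called in neither genotype, at −0.08 ± 0.094 in WT and 0.25 ± 0.094 in ∆Ig3-MuSK. Uqcrc1 was called in neither, at −0.02 ± 0.058 and 0.14 ± 0.058.

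Cycs, at −0.24 ± 0.10 in WT and 0.12 ± 0.10 in ∆Ig3-MuSK, was called in neither genotype. Of the complex IV subunits without a paralog, Cox6c, Cox7b and Ndufa4 were called lower in WT soleus, at −0.53, −0.51 and −0.57, with muscles that did not overlap. In ∆Ig3-MuSK soleus, Cox5a, Cox5b and Cox7c were called higher, at 0.29, 0.44 and 0.48. Cox7c lay between 54.5 and 91.1 CPM in WT TA and between 69.0 and 86.4 CPM in WT soleus, where the muscles overlapped (0.22 ± 0.080, not called). In ∆Ig3-MuSK it lay between 54.6 and 73.0 CPM in TA and between 64.8 and 97.4 CPM in soleus. Cox7a2l was at 0.21 ± 0.076 in WT, not called, and rose by 0.48 ± 0.076 in ∆Ig3-MuSK, with 76.6 to 85.9 CPM in WT soleus and 78.7 to 91.2 CPM in ∆Ig3-MuSK soleus.

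The assembly factor Cox11 had the smallest adjusted p between the muscles. It lay between 19.4 and 26.3 CPM in WT TA (median 22.1) and at 13.2 to 15.1 CPM in WT soleus (median 14.0), a log2 difference of −0.72 ± 0.048 (edgeR, adjusted p = 4.24e-16). In ∆Ig3-MuSK it lay between 20.2 and 23.0 CPM in TA (median 21.5) and between 13.0 and 15.5 CPM in soleus (median 13.8), a difference of −0.65 ± 0.048 (edgeR, adjusted p = 9.14e-15). The muscles were clearly apart, though reads of the overlapping Tom1l1 exons may enter the Cox11 counts. Sco1 and Sco2 were called higher in soleus, at 0.30 ± 0.061 and 0.29 ± 0.068 in WT and 0.40 ± 0.060 and 0.34 ± 0.068 in ∆Ig3-MuSK. Surf1 was called in neither genotype, at −0.22 ± 0.061 in WT and 0.05 ± 0.061 in ∆Ig3-MuSK. Neither were Sdhd, Uqcrfs1, Uqcrb, Cyc1, Cox6b1, Cox4i1, Cox7a2, Cox10, Cox15 and Cox17, whose log2 differences lay between −0.23 and 0.12 in WT and between −0.23 and 0.25 in ∆Ig3-MuSK. Among these Cox15 had ∆Ig3-MuSK muscles without overlap, lower in soleus.

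Markers of other cells also differed between the muscles. Called higher in WT soleus were 6 of 8 pericyte and smooth muscle, 5 of 5 endothelial and 5 of 5 tendon and fibroblast markers. So were 4 of 5 adipocyte, 2 of 3 red blood cell, 2 of 3 cardiac and 1 of 5 macrophage markers. Of 5 Schwann cell markers 1 was lower. In ∆Ig3-MuSK 2 of 8 pericyte markers were higher and 1 lower, with 3 of 5 endothelial and 3 of 5 tendon markers higher. Higher there too were 5 of 5 adipocyte, 3 of 3 red blood cell, 2 of 3 cardiac and 1 of 5 Schwann cell markers. Of 5 macrophage markers 1 was lower. Beside these stood 30.2% of all genes higher and 27.3% lower in WT, and 28.5% and 27.6% in ∆Ig3-MuSK. Endothelial markers summed to 185 to 284 CPM in WT TA, 303 to 405 CPM in WT soleus, 241 to 278 CPM in ∆Ig3-MuSK TA and 277 to 372 CPM in ∆Ig3-MuSK soleus. Their part in the muscle differences of the 37 genes was not tested.

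The paralog pairs of complex IV gave a measure that does not depend on library scaling, the log2 ratio of the restricted to the ubiquitous form within each library. Cox6a2, Cox7a1 and Cox8b were the major forms in both muscles, and Cox4i2 was nearly absent beside Cox4i1. Per transcript length, Cox6a2 made up 95.9% ± 0.352 (SD, n = 9) of its pair in WT TA and 95.6% ± 0.332 in WT soleus, Cox8b 95.9% ± 0.361 and 94.1% ± 0.371, Cox7a1 80.3% ± 1.15 and 78.3% ± 1.10, and Cox4i2 0.353% ± 0.0477 and 0.438% ± 0.0597. The ratios were compared by exact 2-sided permutation tests of the mean over all ways to assign the 18 libraries to 2 groups of 9, with Benjamini-Hochberg adjustment over the 16 tests.

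Cox8b leaned further to the TA than its partner in both genotypes. Its log2 ratio to Cox8a lay between 3.74 and 4.24 in WT TA (median 3.93) and at 3.27 to 3.54 in WT soleus (median 3.34), a difference of −0.58 ± 0.056 (SE, n = 9 and 9, exact permutation p = 4.11e-05, the smallest these permutations can give, adjusted p = 0.000329). In ∆Ig3-MuSK it lay between 3.73 and 4.06 in TA (median 3.90) and between 3.196 and 3.68 in soleus (median 3.41), a difference of −0.50 ± 0.063 (exact permutation p = 4.11e-05, adjusted p = 0.000329). The muscles did not overlap in either genotype. In CPM the pair moved apart from both sides in WT, where Cox8b fell by 0.32 ± 0.083 on the log2 scale in soleus and Cox8a was at 0.26 ± 0.075, not called. In ∆Ig3-MuSK Cox8b was at −0.04 ± 0.083 and Cox8a rose by 0.44 ± 0.075. Cox8a lay between 22.2 and 37.6 CPM in WT TA, 29.6 and 34.1 CPM in WT soleus, 20.4 and 27.5 CPM in ∆Ig3-MuSK TA and 28.0 and 37.5 CPM in ∆Ig3-MuSK soleus.

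In soleus Cox8b itself lay between 306 and 363 CPM in WT (median 329) and between 265 and 415.5 CPM in ∆Ig3-MuSK (median 323), so its ranges overlapped those of the TA.

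Cox7a1 showed a smaller difference of the same sign. Its log2 ratio to Cox7a2 was between 1.18 and 1.54 in WT TA (median 1.25) and at 1.00 to 1.26 in WT soleus (median 1.09), a difference of −0.18 ± 0.048 (n = 9 and 9, exact permutation p = 0.000987, adjusted p = 0.00527). In ∆Ig3-MuSK it was between 1.197 and 1.39 in TA (median 1.31) and between 1.06 and 1.28 in soleus (median 1.15), a difference of −0.15 ± 0.036 (exact permutation p = 0.0016, adjusted p = 0.00642). Here the muscles overlapped in both genotypes. Cox7a1 itself was called lower in WT soleus, at −0.40 ± 0.093, between 238 and 440.4 CPM in TA and 192 and 249.7 CPM in soleus, and was at −0.07 ± 0.093 in ∆Ig3-MuSK, between 228.5 and 338 CPM in TA and 204 and 276 CPM in soleus. Cox7a2 lay between 95.9 and 181 CPM in WT TA (median 112), 96.1 and 136 CPM in ∆Ig3-MuSK TA (median 98.6), 91.6 and 111 CPM in WT soleus (median 108) and 94.8 and 126 CPM in ∆Ig3-MuSK soleus (median 111), with overlap between all groups.

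For Cox4i2 the sign was the opposite in WT. Its log2 ratio to Cox4i1 was at −8.57 to −7.87 in WT TA (median −8.19) and at −8.33 to −7.64 in WT soleus (median −7.85), a difference of 0.31 ± 0.097 (n = 9 and 9, exact permutation p = 0.00568, adjusted p = 0.0182). In ∆Ig3-MuSK the difference was 0.13 ± 0.091 (exact permutation p = 0.163, adjusted p = 0.325), and whether it differed from that in WT was not tested. Cox4i2 was low everywhere, between 1.67 and 3.18 CPM over the 36 libraries. Cox4i1 was 1 of the most abundant members, between 573 and 845 CPM in WT TA, 531.5 and 770.3 CPM in ∆Ig3-MuSK TA, 509 and 642 CPM in WT soleus and 520.5 and 669 CPM in ∆Ig3-MuSK soleus. The 4 ranges of Cox4i1 overlapped.

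The Cox6a pair differed least between the muscles. For Cox6a2 to Cox6a1 the difference between the muscles was −0.12 ± 0.056 in WT (exact permutation p = 0.0458, adjusted p = 0.122), and −0.03 ± 0.078 in ∆Ig3-MuSK (exact permutation p = 0.707, adjusted p = 0.808). Cox6a2 lay between 492 and 713 CPM in WT TA (median 537), 454 and 594 CPM in ∆Ig3-MuSK TA (median 489), 609 and 715.5 CPM in WT soleus (median 643) and 582 and 801 CPM in ∆Ig3-MuSK soleus (median 665). Cox6a1 lay between 15.6 and 26.5 CPM in WT TA (median 19.9), 14.98 and 23.0 CPM in ∆Ig3-MuSK TA (median 17.8), 22.8 and 28.0 CPM in WT soleus (median 25.2) and 21.4 and 31.1 CPM in ∆Ig3-MuSK soleus (median 23.6). Both forms of this pair went the same way between the muscles, Cox6a1 called higher in soleus at 0.33 ± 0.080 in WT and 0.45 ± 0.080 in ∆Ig3-MuSK, and Cox6a2 at 0.21 ± 0.070 in WT, not called, and called higher at 0.43 ± 0.070 in ∆Ig3-MuSK.

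**Figure D5:**
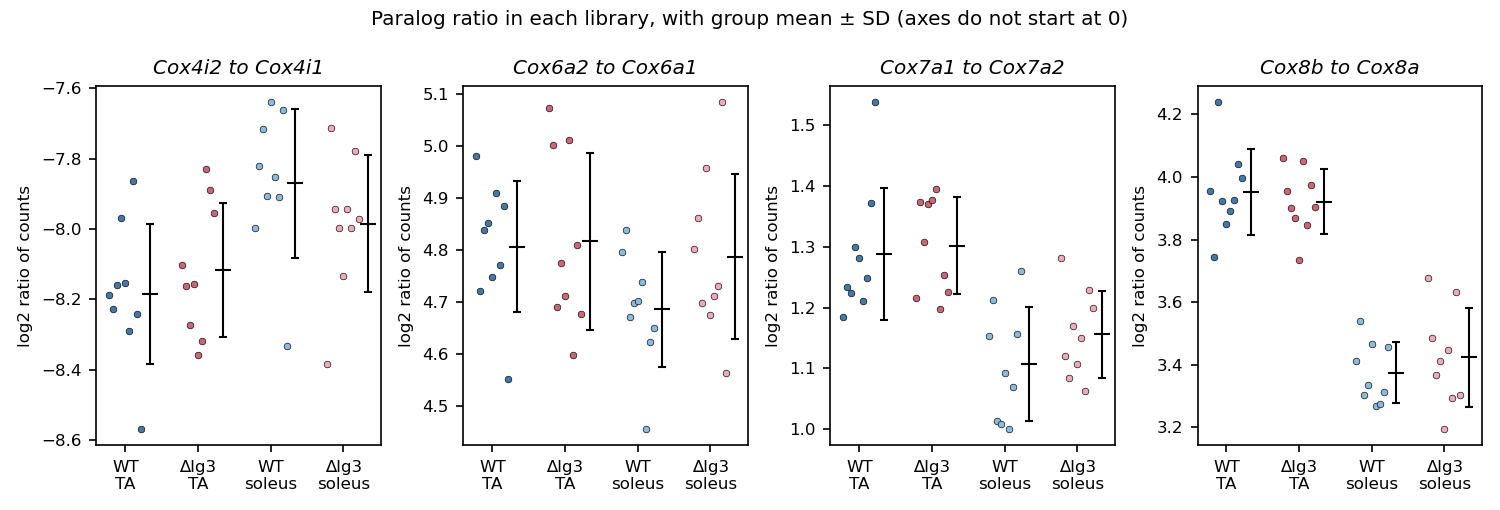
Log2 ratio of the counts of the restricted to the ubiquitous paralog (vertical axes, not from 0) in each library of the 4 groups, with the group mean and SD. Soleus libraries lie below TA libraries for Cox8b to Cox8a without overlap, and genotypes overlap in every pair.

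Genotype left all 4 ratios within the spread between libraries. In the TA the difference of ∆Ig3-MuSK from WT was 0.07 ± 0.091 for Cox4i2 to Cox4i1, 0.01 ± 0.071 for Cox6a2 to Cox6a1, 0.01 ± 0.045 for Cox7a1 to Cox7a2 and −0.03 ± 0.057 for Cox8b to Cox8a. In the soleus these were −0.11 ± 0.096, 0.10 ± 0.064, 0.05 ± 0.039 and 0.05 ± 0.062. The adjusted p of these 8 exact permutation tests ranged from 0.315 to 0.887. In the TA both forms of every pair were below 0 in CPM, at −0.15 ± 0.078 for Cox4i1, −0.08 ± 0.11 for Cox4i2, −0.16 ± 0.088 for Cox6a1, −0.15 ± 0.074 for Cox6a2, −0.25 ± 0.11 for Cox7a2, −0.24 ± 0.10 for Cox7a1 and −0.19 ± 0.086 for Cox8a.

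The windows upstream of the 2 pairs whose ratios passed the test in both genotypes are shown because their paralogs differ in CpG content. CG dinucleotides are in capitals in these 250 bases upstream (RefSeq, GRCm38.p6) of Cox8b (chr7:140900447-140900696, minus strand), Cox8a (chr19:7217617-7217866, minus strand), Cox7a1 (chr7:30183921-30184170, plus strand) and Cox7a2 (chr9:79759854-79760103, minus strand).
Cox8b: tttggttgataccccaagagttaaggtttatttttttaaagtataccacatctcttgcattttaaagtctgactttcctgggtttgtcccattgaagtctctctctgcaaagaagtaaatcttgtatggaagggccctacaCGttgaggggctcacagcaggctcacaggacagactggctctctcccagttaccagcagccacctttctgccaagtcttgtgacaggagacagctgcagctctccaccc
Cox8a: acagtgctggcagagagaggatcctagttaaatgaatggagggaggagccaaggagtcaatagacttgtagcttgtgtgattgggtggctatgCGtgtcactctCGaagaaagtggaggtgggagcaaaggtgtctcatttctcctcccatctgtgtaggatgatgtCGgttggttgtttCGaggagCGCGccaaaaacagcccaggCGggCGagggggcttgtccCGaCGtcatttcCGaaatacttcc
Cox7a1: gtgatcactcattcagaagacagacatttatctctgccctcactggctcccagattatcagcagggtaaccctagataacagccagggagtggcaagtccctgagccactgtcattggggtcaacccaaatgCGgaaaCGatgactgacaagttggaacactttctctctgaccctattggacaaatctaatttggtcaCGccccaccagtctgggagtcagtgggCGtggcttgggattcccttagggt
Cox7a2: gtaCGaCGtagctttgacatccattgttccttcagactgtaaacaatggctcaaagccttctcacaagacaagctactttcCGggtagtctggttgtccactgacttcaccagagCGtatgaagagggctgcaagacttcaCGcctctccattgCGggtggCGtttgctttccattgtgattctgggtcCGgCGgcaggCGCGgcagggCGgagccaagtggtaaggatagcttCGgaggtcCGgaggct
The restricted forms held 1 (Cox8b) and 4 (Cox7a1) CG dinucleotides, and the ubiquitous forms 11 (Cox8a) and 14 (Cox7a2). Over the 27 members with a window the number ranged from 1 to 36 with a median of 14, beside a median of 6 over all windows. Cox8b thus had the lowest count of the 27, Cox7a1 stood next to the small subunits Uqcr10 and Cox7b, which had 5, and Cycs had 23.

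Other genes of the same pathway were compared by genotype as well, beside 12% of all genes lower and 12.2% higher at an unadjusted p in the TA. Of 31 further assembly and accessory genes of complexes II to IV tested in the TA, 0 were called and 13 were lower and 1 higher at an unadjusted p (edgeR), with a median log2 fold change of −0.15. Sdhaf2, which helps to attach the flavin of complex II, and Higd2a, a complex IV factor, had the smallest p, both at −0.22 with an adjusted p of 0.145. All 16 nuclear genes of complex V tested, the ATP synthase, were below 0 with a median of −0.23, 12 lower at an unadjusted p and 0 called, among them Atp5o at −0.21 and Atp5h at −0.26. Of 13 TCA cycle genes 0 were called and 3 were lower at an unadjusted p, with a median of −0.12. Among 14 regulators of mitochondrial biogenesis 0 were called, 2 had a positive and 1 a negative log2 fold change at an unadjusted p and the median was 0.04, with Tfam, which packages mitochondrial DNA, at −0.17 and Pprc1, a relative of PGC-1α, at 0.27. In the soleus the medians of these 4 lists were 0.05, 0.05, 0.07 and 0.003, with 0 called in each, and 3, 0, 1 and 2 genes higher and 0, 0, 0 and 2 lower at an unadjusted p, beside 8.48% and 10.1% of all genes.

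Between the muscles genes of these lists were called in both directions, beside 30.2% of all genes higher and 27.3% lower in WT and 28.5% and 27.6% in ∆Ig3-MuSK. In WT, 6 of 31 assembly and accessory genes were called higher in soleus and 15 lower, and in ∆Ig3-MuSK 7 and 9. Uqcc2, an assembly factor of complex III, was lower in soleus by a log2 difference of −1.39 in WT and −1.08 in ∆Ig3-MuSK, and Coa7, an assembly factor of complex IV, by −0.80 and −0.63. For complex V 1 of 16 was called higher and 6 lower in WT, and 8 and 1 in ∆Ig3-MuSK, with Atp5a1 at 0.43 and 0.53. TCA cycle genes numbered 3 higher and 5 lower of 13 in WT, and 5 and 0 in ∆Ig3-MuSK. Regulators of biogenesis numbered 7 higher of 14 in WT and 6 in ∆Ig3-MuSK, with 1 lower in each, and Esrrb and Esrrg, orphan nuclear receptors of oxidative metabolism, were higher by 3.09 and 2.77 in WT and by 2.92 and 2.59 in ∆Ig3-MuSK.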

How the data were processed

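RNA of whole TA and soleus was sequenced in 36 libraries without strand information. The authors trimmed reads with Trimmomatic, aligned them with GSNAP to mm10 (GRCm38) and counted them with htseq-count, and deposited raw counts per Ensembl gene ID, in 1 table for each muscle. The annotation release and the counting mode are not given in the sources used here. Groups and replicate numbers came from the labels, which do not tie each library to an animal of its own. The study's legends give 1 muscle per animal. p-values measure the spread between these samples. In the fits over 36 libraries that spread is 1 estimate per gene, shared by the 4 groups. The groups did not vary alike, with a median SD of log2 CPM of 0.229 in WT TA and 0.0966 in WT soleus.

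Counts were tested in R 4.3.3 with edgeR 4.0.16 (filterByExpr with a minimum count of 10 and a minimum total of 15, TMM, glmQLFit, glmQLFTest). Genotypes were compared within each muscle over 18 libraries, and muscles and the interaction in 1 fit over 36. A gene was called at a Benjamini-Hochberg adjusted p under 0.05 with a 1.2-fold change or more. CPM values use TMM factors over the 36 libraries. Paralog ratios are log2 ratios of counts with a pseudocount of 0.5. Transcript lengths, exons and overlaps came from GENCODE, for 51633 of the 51912 IDs, and upstream windows from RefSeq. Windows were not matched for 10 of the 37 genes, which are Cox4i1, Cox6c, Cyc1, Uqcrc2, Cox17, Sdhc, Uqcrq, Cox4i2, Cox6a2 and Uqcrb. Transcript length classes used genes with a mean log2 CPM of at least 3. The length offset was a lowess of each library's deviation on log2 length with a span of 0.3. In the annotation 12 of the 37 genes share exon bases with another gene, and Cycs and Uqcrh have named pseudogenes. Only the genotype fits, with and without the length offset, were run on simulated counts, with changes larger than any of the 37 genes had by genotype. Library deviations linked to transcript length were not simulated. Neither were the muscle and interaction fits and the ratio tests.

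The 37 genes, the other lists and the tests were chosen with earlier results of these data known. Genes named with values are the paralog pairs, Cox7a2l, Cycs, Sdha, Sdhb, Uqcrc1 and Surf1, the 3 members with the smallest p in each direction of a genotype comparison or the interaction, the 3 largest and 3 smallest changes between muscles, and the 2 genes with the smallest p of each other list. Members named besides, as called in a comparison or without overlap, were picked with their values in view. The alternatives tried were DESeq2 1.42.0, limma-voom with sample quality weights (limma 3.58.1), other scaling factors and filters, a single fit, replicate blocks and each library left out. The length offset and the fits without the 3 TA libraries were chosen after seeing the data.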

Additional observations from a re-analysis of the deposited data

Results flagged for a closer look

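A value stood apart within its group of 9 libraries, by the gap to its nearest neighbor as a share of the range, in 30 of 148 combinations of gene and group. Chance alone gives about 1 in 20, and genes of 1 library are not independent. All 30 were high values and all were in the TA. In ∆Ig3-MuSK TA replicate 3 there were 24. Of complex II these were Sdhb at 392 CPM, Sdhc at 231 and Sdhd at 233. Of complex III they were Uqcrfs1 at 428 CPM, Uqcrb at 119, Uqcrq at 530, Uqcrh at 250, Uqcr10 at 282, Uqcr11 at 206 and Cyc1 at 446. Of complex IV they were Cox5a at 388 CPM, Cox5b at 254, Cox6b1 at 271, Cox6c at 339, Cox7b at 389, Cox7c at 73.0, Ndufa4 at 512, Cox4i1 at 770, Cox7a2 at 136, Cox7a1 at 338, Cox8b at 411 and Cox7a2l at 81.4. The assembly factors were Cox10 at 44.0 CPM and Cox17 at 51.4. In WT TA replicate 5 there were 6, namely Sdhd at 325 CPM, Uqcrc2 at 458, Cox5b at 328, Cox6b1 at 404, Cox8a at 37.6 and Sco2 at 15.5. The TA comparisons without these libraries are given with the main results.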

How the results depend on the processing

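In the TA, 0 members were called in all but 1 of the alternatives run, the single fit over the 36 libraries, which called 1 (Cycs, log2 fold change −0.36; Surf1 at −0.20 passed the adjusted p there but not the 1.2-fold minimum). The number lower at an unadjusted p ranged from 9 to 31 with a library left out in turn, 9 without WT replicate 3 and 11 without WT replicate 5, and was 4 with the length offset and 1 without WT replicates 3 and 5. In the soleus, members higher at an unadjusted p were 0 in the single fit, 2 with the replicate block and 1 to 4 with a library left out, and members lower were 6 with total counts only and 1 with limma-voom. The soleus median was −0.041 with total counts only and −0.0018 with the length offset. The interaction had 1 member above 0 at an unadjusted p with total counts only, 2 with the length offset and 5 without WT TA replicates 3 and 5. Members called higher in WT soleus than TA were 14 with total counts only, 11 with the length offset and 10 in each fit without the TA libraries that stood apart. Members called lower in ∆Ig3-MuSK soleus were 5 with the replicate block by label number and 5 with the length offset. At a 2-fold minimum 0 were called between the muscles in either direction and genotype. The causes of these changes were not tested.

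Equal replicate numbers of WT and ∆Ig3-MuSK libraries went with a median correlation of deviations of −0.003 in the TA (over 0.1 in 2 of 9) and 0.009 in the soleus (3 of 9), and shared label numbers of TA and soleus with 0.06 in WT (over 0.1 in 2 of 8) and 0.147 in ∆Ig3-MuSK (5 of 8). Neither kind of number was taken as a pair in the main fits. For shared label numbers the correlations were all positive, from 0.0256 to 0.1231 in WT and from 0.03244 to 0.2845 in ∆Ig3-MuSK. Such values cannot decide whether libraries of the same label number came from the same animal. In 8 pairs of equal label number the Cox8b and Cox7a1 ratios were lower in soleus in 8 of 8 in each genotype (exact sign-flip p = 0.00781, the smallest possible).

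With a library left out in turn, the Cox6a2 ratio ranged from −0.15 to −0.092 between muscles in WT (past the threshold without WT TA replicate 9), from −0.066 to 0.0028 between muscles in ∆Ig3-MuSK and from −0.022 to 0.037 by genotype in the TA, and the Cox8b ratio by genotype in the TA from −0.056 to 0.0054.

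Over all 37 genes, 36 were below 0 in the TA in the main fit, 29 with the length offset and 35 without WT TA replicates 3 and 5. In the soleus 9 were below 0 in the main fit and 21 with the length offset. The signs listed next are only those of genes that the naming rule gives for a comparison, and other members are left out. Among these genes, signs turned for small differences that were not called. With the length offset these were, in the TA, Cox4i1 0.0021, Cox4i2 0.072, Cox6a1 0.0060, Cox6a2 0.012 and Uqcrc1 0.0064, in the soleus Cox7a2 −0.019, Cox7a2l −0.0070 and Cox8b −0.037, between muscles Uqcrc1 0.095 in WT and Cox4i1 −0.031 in ∆Ig3-MuSK, and in the interaction Cox4i2 −0.17, Cox6a1 −0.094, Cox8a −0.045 and Cox15 0.042. With total counts only they were, in the soleus, Cox4i1 −0.027, Cox6a2 −0.023, Cox7a2 −0.047, Cox7a2l −0.047, Cox8b −0.050, Sdha −0.013, Uqcrc1 −0.0063 and Surf1 −0.019, in WT between muscles Uqcrc1 0.15, and in the interaction Cox4i2 −0.11, Cox6a1 −0.021 and Sdha −0.087. Without WT TA replicates 3 and 5 they were Cox4i2 0.0056 and Sdha −0.019 in the TA, Cox4i1 −0.0050 between ∆Ig3-MuSK muscles, and Cox4i2 −0.052 and Cox15 0.016 in the interaction. Without the 3 libraries they were Sdha −0.033 in the TA and Cox4i2 −0.024 and Cox15 0.0063 in the interaction. In the remaining fits they were Sdha −0.014 (TA) and Cox7a2 −0.00034 (soleus) with limma-voom, Cycs 0.00068 (soleus) in the single fit, Cox4i1 −0.025 between ∆Ig3-MuSK muscles with the replicate block, and, with a library left out, Cycs from −0.039 to 0.025 and Cox8b from −0.0072 to 0.071 in the soleus. Counting error bears most on Cox4i2, which had 87 to 200 counts per library.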
